A study of Mus musculus with 6 samples.

Results

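The transcription factors *Myod1*, *Myf5*, *Myf6*, *Myog*, *Mef2c*, *Tbx1*, *Msc*, *Tcf21* and *Lbx1*, which regulate muscle of the head, were followed in RNA-Seq data from microdissected craniofacial tissue of mouse embryos at E12.5. They were chosen by name for their known roles in head muscle and are 9 of the 38553 genes measured. The comparison was between 3 control samples of genotype Rbfox2 flox/flox, without Cre, and 3 mutant samples of genotype Pax3Cre/+:Rbfox2 flox/flox, so that both *Rbfox2* alleles were floxed in every sample. *Rbfox2* is an RNA-binding regulator of alternative splicing. Cre is knocked into the *Pax3* gene in this line, so the mutants also carry 1 altered *Pax3* allele, and Cre acts in neural crest cells before and during their migration and in paraxial mesoderm and the derivatives of somites. The mice were on a mixed genetic background, and the paper's methods count the 3 samples of each group as independent biological replicates.

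Most muscles of the head arise from cranial mesoderm that fills the pharyngeal arches, whereas tongue muscle comes from occipital somites. In the arches *Tbx1*, *Msc* and *Tcf21* act upstream, and *Myf5* and *Myod1* commit cells to the muscle fate. *Myog* drives their differentiation together with *Mef2c*, and *Myf6* acts in maturing fibres. Neural crest cells form the connective tissue and tendons around these muscles and signal to them. *Lbx1* is best known in migratory muscle precursors from somites, including those of the tongue, and in dorsal interneurons of the hindbrain and spinal cord. *Mef2c* and *Tbx1* are also made outside muscle, *Mef2c* in neural crest, endothelium and neurons, and *Tbx1* in pharyngeal endoderm and the otic vesicle.

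*Myod1*, *Myog*, *Mef2c* and *Msc* had lower means in the mutants, at 73.7% to 83.1% of control, and *Tbx1* was at 107%. None of these differences had an adjusted p under 0.05 in limma. *Rbfox2*, the gene targeted in the mutants, did not reach it either, so a miss does not show that a gene is unchanged. The levels are in FPKM, a fragment count divided by gene length and by the mapped fragments of the sample, and fold changes are differences of mean log2(FPKM + 1), mutant minus control. The groups were compared with limma across the 13715 genes whose FPKM averaged above 1 over the 6 samples, and p-values were adjusted over all of them. At an adjusted p under 0.05, limma called 0 of these genes (0%), with a smallest adjusted p of 0.189. At an unadjusted p under 0.05, 1.26% of the genes tested were lower in the mutants and 0.824% were higher. Of the 9 factors, 5 passed the filter (*Myod1*, *Myog*, *Mef2c*, *Tbx1* and *Msc*), and 4 of the 5 were lower by log2 fold change, as were 49.3% of all genes tested. *Myf5*, *Myf6*, *Tcf21* and *Lbx1* were under it, and for these the level is given without this test. Tissue RNA does not tell a smaller number of muscle cells from less RNA per muscle cell.

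The genotype was visible in *Rbfox2* itself, which stood at 58.4, 65.0 and 61.3 FPKM in control replicates 1, 2 and 3 and at 38.1, 36.3 and 34.3 FPKM in the mutants. That is 58.9% of the control mean, with a log2 fold change of -0.75 (SE 0.078, limma, adjusted p = 0.189). *Pax3* was at 8.84, 11.9 and 11.1 FPKM in the controls and at 8.62, 7.59 and 8.36 FPKM in the mutants, below the lowest control in every mutant. FPKM summed to between 528123 and 590174 over all genes of a sample, and how many fragments stand behind a value is unknown. The first principal component held 47.1% of the variance and set the first replicates of both groups (scores -24.0 and -22.9) apart from the other samples (9.85 to 14.9). Y-linked genes averaged 14.4 and 13.9 FPKM in mutant replicates 1 and 2 and no more than 0.0541 FPKM in the other samples. The parts of these splits in the differences given here were not tested beyond the fits with the replicate number or the Y-linked level as a term and those with samples left out. With the Y-linked level as a term, the comparison in effect rests on mutant replicate 3 alone against the controls.

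**Figure D1:**
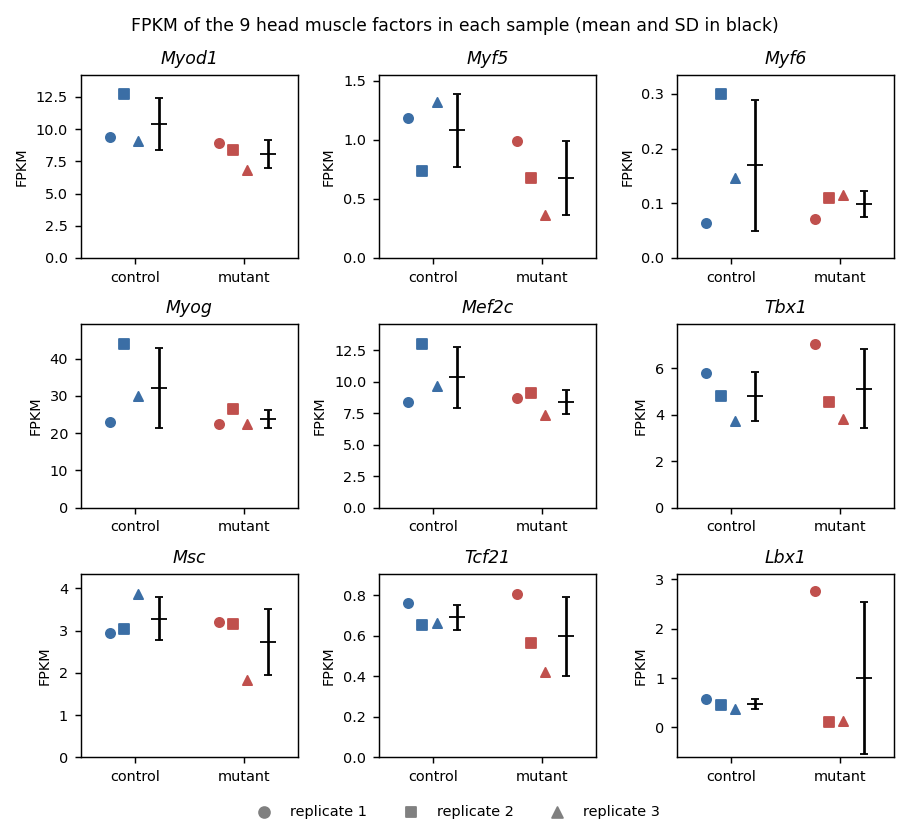
FPKM of each of the 9 factors (y axis, from 0 or below it where the SD bar extends there) in the control and mutant samples (x axis), with 1 point per sample, the marker giving its replicate number, and the group mean and SD (n = 3) in black. *Myod1* is the 1 factor whose 3 mutant points all lie below its 3 control points, and *Lbx1* has 1 mutant sample at 2.77 FPKM with the other samples between 0.110 and 0.571 FPKM.

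*Myod1*, a basic helix-loop-helix (bHLH) factor that commits cells to the muscle fate, lies at chr7:46376474-46379099 on the plus strand of GRCm38. It was at 9.40, 12.7 and 9.11 FPKM in control replicates 1, 2 and 3 and at 8.93, 8.35 and 6.86 FPKM in mutant replicates 1, 2 and 3. All mutant values were below all control values, but the highest mutant was close to the lowest control, and control replicate 2 stood above the others. The mean was 10.4 ± 2.0 FPKM (SD, n = 3) in the controls and 8.05 ± 1.07 FPKM (SD, n = 3) in the mutants, or 77.3% of the control mean. The log2 fold change was -0.33 (SE 0.15, 95% interval -0.68 to 0.022) with an adjusted p of 1 in limma. An exact two-sided permutation test gave p = 0.1, the smallest that 3 samples against 3 allow. Of all genes tested, 3.00% had all 3 mutants below all 3 controls and 2.79% had them above.

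*Myf5*, the bHLH factor that acts beside *Myod1* in commitment, lies at chr10:107482908-107486134 on the minus strand, and its neighbour *Myf6* at chr10:107492853-107494737 on the same strand, 6718 bases away. *Myf5* was at 1.18, 0.733 and 1.32 FPKM in the controls and at 0.993, 0.680 and 0.366 FPKM in the mutants. The groups overlapped, since control replicate 2 was below mutant replicate 1. The means were 1.08 ± 0.307 FPKM and 0.680 ± 0.313 FPKM (SD, n = 3 each), 63.0% of control, and the exact permutation test gave p = 0.2. In the fit without a filter the log2 fold change of *Myf5* was -0.31 (SE 0.17).

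*Myog*, the bHLH factor that switches committed myoblasts to differentiation, was the most abundant of the 9. It lies at chr1:134289989-134292548 on the plus strand. It was at 22.9, 43.9 and 29.8 FPKM in the controls and at 22.4, 26.4 and 22.4 FPKM in the mutants. Control replicates 2 and 3 stood above every mutant, whereas control replicate 1 lay within the narrow mutant range. The means were 32.2 ± 10.7 FPKM and 23.7 ± 2.34 FPKM (SD, n = 3 each), 73.7% of control. The log2 fold change was -0.38 (SE 0.22, 95% interval -0.89 to 0.13) with an adjusted p of 1 in limma, and the exact permutation test gave p = 0.2. Without control replicate 2 the log2 fold change of *Myog* was -0.14 and without control replicate 1 it was -0.59.

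The stretch before the start of *Myog* is shown because MEF2 proteins and bHLH factors, through MEF2 and E-box motifs, are textbook regulators of this gene. Whether these motifs act in these samples was not tested. It is 235 bases at chr1:134289754-134289988 on the plus strand, from RefSeq promoters of GRCm38.p6, and ends before the annotated start of the gene. Capitals mark an E-box (CANNTG, searched on both strands) and a MEF2 core (CTANNNNTA, both strands), and the 2 matches do not overlap.
Myog promoter: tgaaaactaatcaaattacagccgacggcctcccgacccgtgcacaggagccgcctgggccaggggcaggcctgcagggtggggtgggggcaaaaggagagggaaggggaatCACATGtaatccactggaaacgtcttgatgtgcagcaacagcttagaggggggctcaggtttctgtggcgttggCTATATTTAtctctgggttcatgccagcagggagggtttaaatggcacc
Counted from the RefSeq start, the E-box is at -138 and the MEF2 core at -64, and another E-box at -12 falls past the end of the printed stretch. In the same windows, 250 bases before to 50 after the start, 72.3% of 32851 promoters held an E-box and 21% held a MEF2 core. Promoters of 5 of the 9 factors (*Mef2c*, *Myf5*, *Myog*, *Tbx1* and *Tcf21*, 8 windows) were in the table, and a MEF2 core was also present in the *Myf5* window and in 1 of the *Mef2c* windows.

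*Myf6*, also called MRF4, was the least abundant of the 9. It was at 0.0639, 0.299 and 0.146 FPKM in the controls and at 0.0716, 0.110 and 0.114 FPKM in the mutants. Both control replicate 1 and mutant replicate 1 were low and control replicate 2 was high, so the groups overlapped. The means were 0.170 ± 0.120 FPKM and 0.0988 ± 0.0236 FPKM (SD, n = 3 each), and the exact permutation test gave p = 0.5. At such levels the number of fragments behind a value may be small, and it is unknown.

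*Mef2c*, a MADS-box factor that works with the bHLH factors on muscle genes, lies at chr13:83504034-83667080 on the plus strand. It was at 8.37, 13 and 9.69 FPKM in the controls and at 8.76, 9.11 and 7.35 FPKM in the mutants. Control replicate 1 was below mutant replicates 1 and 2, and control replicate 2 stood apart above the rest. The means were 10.4 ± 2.40 FPKM and 8.40 ± 0.931 FPKM (SD, n = 3 each), 81.1% of control. The log2 fold change was -0.26 (SE 0.16, 95% interval -0.64 to 0.12) with an adjusted p of 1 in limma, and the exact permutation test gave p = 0.3. Without control replicate 2 the log2 fold change of *Mef2c* was -0.095.

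**Figure D2:**
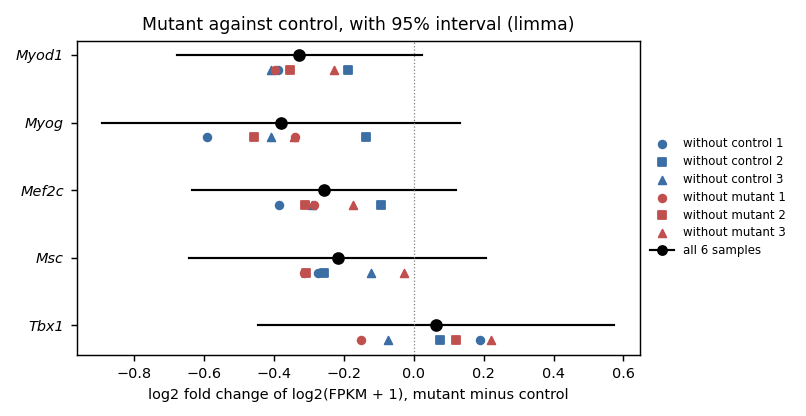
Log2 fold change of the 5 tested factors, mutant minus control on the log2(FPKM + 1) scale (x axis), with the limma 95% interval in black and, below each, the values with 1 sample left out (blue, a control left out, red, a mutant left out, the marker giving the replicate number). Every interval includes 0, and the values for *Myod1*, *Myog* and *Mef2c* are nearest to 0 without control replicate 2.

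With the replicate number as a block, which pairs the samples numbered alike, the estimates for *Myod1*, *Myog* and *Mef2c* had smaller errors. The pairing was taken from these same data, so the p-values of this fit are no separate support. The SE was 0.107 for *Myod1*, 0.127 for *Myog* and 0.116 for *Mef2c*, and the adjusted p-values in limma were 0.797, 0.797 and 0.817. In this fit 3.96% of all genes tested were lower at an unadjusted p under 0.05, *Myod1* and *Myog* among them, and 2.19% were higher. The difference was unequal over the pairs. In the pair of first replicates the log2 difference was -0.067 for *Myod1*, -0.032 for *Myog* and 0.059 for *Mef2c*, whereas in the fit on replicates 2 and 3 the log2 fold change was -0.46 for *Myod1*, -0.55 for *Myog* and -0.42 for *Mef2c*. A difference between the first pair and the others was not tested.

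*Tbx1*, a T-box factor upstream of muscle commitment in the pharyngeal arches, lies at chr16:18580979-18590671 on the minus strand. It was at 5.80, 4.81 and 3.74 FPKM in the controls and at 7.04, 4.52 and 3.81 FPKM in the mutants. The highest value in each group was that of the first replicate, and the groups overlapped throughout. The means were 4.78 ± 1.03 FPKM and 5.12 ± 1.70 FPKM (SD, n = 3 each), 107% of control. The log2 fold change was 0.064 (SE 0.22, 95% interval -0.45 to 0.57) with an adjusted p of 1 in limma, and the exact permutation test gave p = 0.9. It was -0.15 without mutant replicate 1 and 0.22 without mutant replicate 3, so its sign rests on single samples. The interval leaves room for changes of either sign that are as large as those estimated for *Myod1* and *Myog*.

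*Msc*, or MyoR, is a bHLH repressor of the first and second arch muscle progenitors and lies at chr1:14753346-14755992 on the minus strand, where it overlaps *Gm9947* on the plus strand. It was at 2.95, 3.03 and 3.87 FPKM in the controls and at 3.2, 3.16 and 1.82 FPKM in the mutants. Mutant replicates 1 and 2 lay among the controls and only mutant replicate 3 was below them. The means were 3.28 ± 0.510 FPKM and 2.73 ± 0.784 FPKM (SD, n = 3 each), 83.1% of control. The log2 fold change was -0.22 (SE 0.18, 95% interval -0.64 to 0.21) with an adjusted p of 1 in limma, and it was -0.029 without mutant replicate 3. The exact permutation test gave p = 0.6.

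*Tcf21*, or capsulin, is a close relative of *Msc* with a shared role in jaw muscle progenitors and is also made in connective tissue cells. It lies at chr10:22817281-22820174 on the minus strand, where it overlaps *Gm10824* on the plus strand. It was at 0.761, 0.652 and 0.661 FPKM in the controls and at 0.808, 0.565 and 0.422 FPKM in the mutants. The mutant values spread on both sides of the controls, with means of 0.598 ± 0.195 FPKM and 0.692 ± 0.0607 FPKM (SD, n = 3 each) in mutants and controls. The exact permutation test gave p = 0.5.

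*Lbx1*, a homeobox gene of migrating muscle precursors and hindbrain interneurons, lies at chr19:45232684-45235812 on the minus strand. It was at 0.571, 0.451 and 0.369 FPKM in the controls and at 2.77, 0.110 and 0.125 FPKM in the mutants. Mutant replicate 1 was above every control and mutant replicates 2 and 3 were below every control, so a mean describes neither. The means were 0.464 ± 0.101 FPKM in the controls and 1.0 ± 1.53 FPKM in the mutants (SD, n = 3 each), with p = 1 in the exact permutation test. Without mutant replicate 1 the difference in mean log2(FPKM + 1) of *Lbx1* was -0.39, in place of 0.20.

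In order of mean FPKM over all 6 samples, a scale per length, the factors ran *Myog* (28.0), *Mef2c* (9.38), *Myod1* (9.23), *Tbx1* (4.95), *Msc* (3.01), *Myf5* (0.880), *Lbx1* (0.733), *Tcf21* (0.645) and *Myf6* (0.134). Neighbours were compared within samples by an exact two-sided sign-flip permutation test, whose smallest p with 6 samples is 0.031. The pairs and their direction came from the means of these same samples, so a small p is no separate support for the order. *Myog* was above *Mef2c*, *Myod1* above *Tbx1*, *Msc* above *Myf5*, and *Tcf21* above *Myf6* in 6 of 6 samples each, and these 4 pairs reached that p in the exact test (0.0625 adjusted over the 8 pairs). *Tbx1* was above *Msc* in 5 of 6 samples (exact p = 0.0625). *Mef2c* and *Myod1* did not differ beyond their spread, with *Mef2c* higher in 4 of 6 samples (exact p = 0.594). *Lbx1* stood above *Tcf21* in mean FPKM through mutant replicate 1 alone and was the higher of the pair in 1 of 6 samples (exact p = 0.844), and *Myf5* was above *Lbx1* in 5 of 6 samples (exact p = 0.375).

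Ratios within a sample set the factors against each other. *Myog* was 2.43, 3.45 and 3.28 times *Myod1* in the controls and 2.5, 3.17 and 3.27 times *Myod1* in the mutants. The first replicates of both groups had the low ratios and the rest were alike, so this ratio followed the replicate number more than the genotype. The mean log2 ratio differed by -0.029 (SE 0.20, exact permutation p = 0.7). *Myf5* against *Myod1* had a mean log2 ratio of -3.30 ± 0.717 in the controls and -3.67 ± 0.531 in the mutants (SD, n = 3 each), a difference of -0.37 (SE 0.51, exact permutation p = 0.5). It was -0.78 without control replicate 2 and -0.096 without mutant replicate 3. *Tcf21* was 0.258, 0.215 and 0.171 times *Msc* in the controls and 0.252, 0.179 and 0.232 times *Msc* in the mutants, a log2 difference of 0.047 (SE 0.23, exact permutation p = 0.8). *Myod1* divided by the summed FPKM of 16 contractile genes was 0.0426, 0.0181 and 0.0221 in the control samples and 0.0422, 0.0219 and 0.0235 in the mutants, a log2 difference of 0.12 (SE 0.48, exact permutation p = 0.8). In none of the 4 ratios did the groups stand apart, and the adjusted p over the 4 was 0.8 for each.

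**Figure D3:**
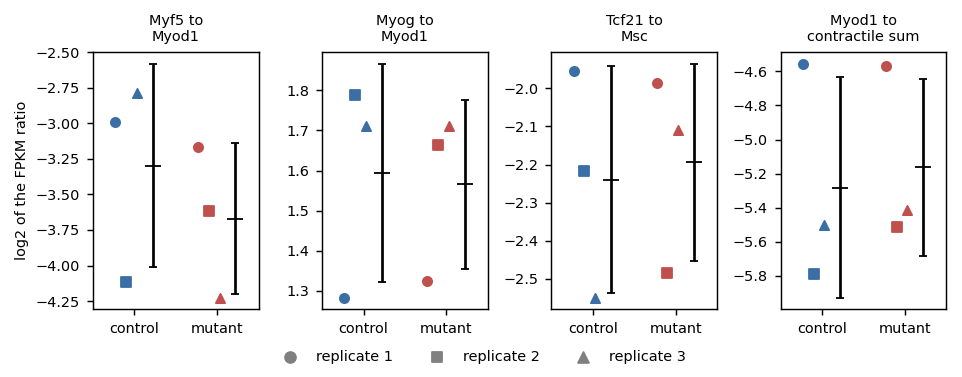
Log2 of 4 ratios of FPKM within a sample (y axis, not starting at 0) in control and mutant samples (x axis), 1 point per sample with the marker giving its replicate number, and the group mean and SD (n = 3) in black. The groups overlap in every ratio, and the first replicates of both groups have the lowest *Myog* to *Myod1* ratios and the highest *Myod1* to contractile ratios.

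Over the 6 samples the factors formed groups by their profile. Pearson's r of log2(FPKM + 1) was 0.96 between *Myog* and *Mef2c*, 0.93 between *Myod1* and *Mef2c*, 0.82 between *Myod1* and *Myog* and 0.96 between *Myf6* and *Myog*. The differentiation factors and *Myod1* were all highest in control replicate 2. *Myf5* was not part of this group, with r = 0.028 to *Myog*, and its profile was nearer to that of *Msc* (0.84) and *Tcf21* (0.82). *Tbx1* had r = 0.85 to *Lbx1* and 0.79 to *Tcf21* but -0.27 to *Myog* and 0.0025 to *Mef2c*. These values describe 6 samples that share the same libraries, depth and split of the first replicates, and they carry no test.

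**Figure D4:**
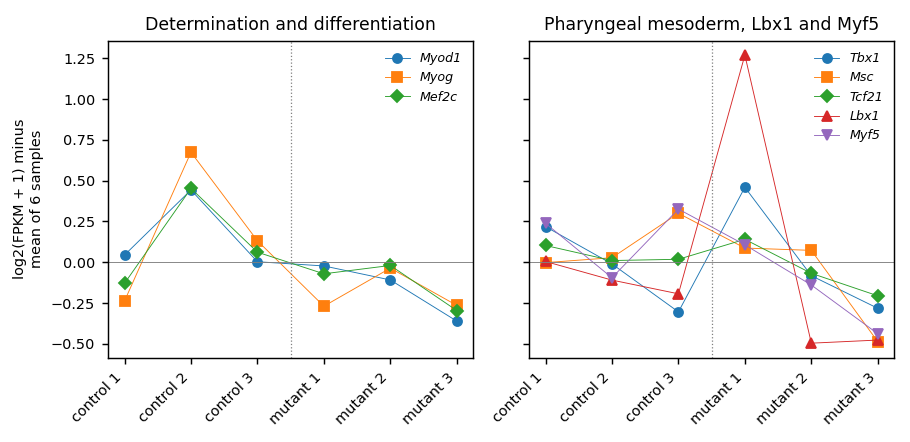
Log2(FPKM + 1) of 8 of the factors in each sample (x axis), minus the mean of that factor over the 6 samples (y axis), with thin lines joining the points of a gene only to guide the eye. On the left, *Myod1*, *Myog* and *Mef2c* share a peak in control replicate 2, and on the right *Lbx1* and *Tbx1* are highest in mutant replicate 1.

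The genes most like a factor in profile were found among the other 13714 genes tested. For *Myod1* they were *Fkbp1b* (r = 0.996), *Ddb2* (0.992) and *Tmem26* (0.989), and 194 genes had r above 0.9. For *Myog* they were *Arhgef25* (0.997), *Zfp948* (0.996) and *Thbs4* (0.995), among 385 genes above 0.9, and for *Mef2c* they were *Sec31a* (0.997), *Klf4* (0.994) and *Bcam* (0.993), among 309. For *Tbx1* they were *AC152164.1* (0.995), *Heyl* (0.993) and *Zdhhc1* (0.993), among 319, and for *Msc* they were *Sergef* (0.991), *Gm13331* (0.99) and *Zhx2* (0.985), among 37. With 6 samples an r above 0.9 was common, so these names describe a shared order of samples and nothing more.

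Factors above the 9 in the pathway were measured as a list of 13 progenitor genes, of which 12 passed the filter, 7 lower and 5 higher in the mutants. The list's median log2 fold change was -0.059 against 0.0015 for all genes. *Pax3*, which acts in somitic muscle precursors, was the 1 gene of the list with an unadjusted p under 0.05 in limma (log2 fold change -0.33, SE 0.12, adjusted p = 1), and it carries the Cre. *Meox1*, a homeobox gene of the somite, was at 4.82, 8.83 and 7.81 FPKM in the controls and at 3.99, 5.12 and 5.31 FPKM in the mutants (log2 fold change -0.46, SE 0.21), with control replicate 1 below mutant replicates 2 and 3. With the replicate block the SE of *Meox1* was 0.11, and *Pax3* and *Meox1* were the 2 genes of the list at an unadjusted p under 0.05 (both lower, limma adjusted p = 0.797 each). In the fits without and with the block, 1.26% and 3.96% of all genes tested were lower at that unadjusted p. *Isl1*, a factor of the pharyngeal mesoderm that forms arch muscle and heart, was at 19.6 to 22.1 FPKM in the controls and 20.7 to 23.4 FPKM in the mutants (log2 fold change 0.057, SE 0.083). *Lhx2*, also made in the brain, varied from 28.1 to 90.0 FPKM among the controls alone (log2 fold change 0.41, SE 0.37). *Nkx2-5*, the remaining gene of the list, was under the filter and was picked out here after its values were seen. It was at 1.56, 1.34 and 1.07 FPKM in the controls and at 0.509, 0.434 and 0.451 FPKM in the mutants, all below the controls. Among genes at a mean FPKM above 0.5 and no more than 1, the band just under the filter, 5.54% had all 3 mutants below all 3 controls.

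Partners of the factors had small differences in estimate. The 8 E proteins, Id proteins and bHLH inhibitors, which dimerise with or block the muscle bHLH factors, all passed the filter, 3 lower and 5 higher, with a median log2 fold change of 0.046 and 0 at an unadjusted p under 0.05. *Tcf3*, the E protein E2A, was at 142 to 152 FPKM in the controls and 148 to 156 FPKM in the mutants (log2 fold change 0.044, SE 0.074). The inhibitor *Id3* had a log2 fold change of -0.035 (SE 0.12) and *Mdfi*, an inhibitor of the MyoD family, 0.080 (SE 0.082), while *Id4* (0.22, SE 0.29) and *Tcf4* (-0.080, SE 0.11) had the largest values of the list with *Mdfi*. Of 10 Mef2 family members and cofactors, 8 were tested, 5 lower and 3 higher, with a median of -0.028 and 0 at an unadjusted p under 0.05. *Mef2a* was at 12.7, 14.5 and 12.7 FPKM in the controls and at 12.4, 12.3 and 12.0 FPKM in the mutants, below every control by a small margin (log2 fold change -0.10, SE 0.083). Of all genes tested, 3.00% had every mutant below every control. The class IIa deacetylases that bind MEF2 proteins had log2 fold changes of 0.021 (*Hdac5*, SE 0.090), -0.054 (*Hdac7*, SE 0.10) and 0.075 (*Hdac4*, SE 0.11), and *Mamstr*, a coactivator of MEF2, -0.14 (SE 0.14).

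Genes of the *Tbx1* pathway and of precursor migration had differences of both signs. Of 12 *Tbx1* pathway genes, 11 were tested, 4 lower and 7 higher, with a median of 0.074 and 0 at an unadjusted p under 0.05. *Crkl*, an adaptor that acts with *Tbx1*, had a log2 fold change of 0.036 (SE 0.069). *Cyp26b1* and *Cyp26c1* degrade retinoic acid, and their log2 fold changes were -0.017 (SE 0.24) and 0.36 (SE 0.24). That of the forkhead gene *Foxc2* was 0.30 (SE 0.23) and that of the homeobox gene *Gbx2* was 0.27 (SE 0.30). With the replicate block *Cyp26c1* and *Foxc2* were higher at an unadjusted p under 0.05, with an adjusted p over 0.05 in limma. At that unadjusted p, 2.19% of all genes tested were higher with the block. Of 5 migration genes 4 were lower and 1 was higher, with a median of -0.063. The receptor *Met* had a log2 fold change of -0.20 (SE 0.18), its ligand *Hgf* -0.12 (SE 0.13), the receptor *Cxcr4* 0.19 (SE 0.13) and its ligand *Cxcl12* -0.056 (SE 0.13).

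Genes listed as downstream of the factors were lower in estimate throughout. The list covered muscle cell adhesion, fusion and the neuromuscular receptor, and also held other muscle genes such as *Vgll2*, *Rbm24* and *Smyd1*. Of the 19 listed genes 14 were tested, and 14 had a lower mutant mean and 0 a higher one, with a median log2 fold change of -0.41. Over all genes tested, 49.3% were lower in estimate. The 19 genes summed to 44.85, 84.7 and 58.11 FPKM in the controls and to 39.79, 49.65 and 35.08 FPKM in the mutants. These genes were measured in the same 6 samples, so 14 of 14 is not 14 separate observations. The 2 tested genes of the list with an unadjusted p under 0.05 were *Cdh15* and *Vgll2* and none had an adjusted p under 0.05. Of all genes tested, 1.26% were lower at that unadjusted p. In both genes the groups overlapped. *Vgll2* was at 2.847, 3.791 and 2.706 FPKM in the controls and at 2.784, 1.887 and 1.66 FPKM in the mutants (log2 fold change -0.41, SE 0.17). *Cdh15*, the M-cadherin of muscle precursors, was at 4.67, 8.26 and 6.62 FPKM in the controls and at 3.77, 5.28 and 3.66 FPKM in the mutants (log2 fold change -0.51, SE 0.20, limma adjusted p = 1). *Mymx*, or myomixer, a micropeptide of myoblast fusion, was at 4.19, 5.96 and 5.27 FPKM and at 2.73, 5.01 and 1.84 FPKM (log2 fold change -0.61, SE 0.27). *Klhl41*, a protein of the sarcomere, had a log2 fold change of -0.62 (SE 0.28), and *Des*, the intermediate filament of muscle, -0.42 (SE 0.28). *Chrnb1*, a subunit of the acetylcholine receptor, was at 2.22, 4.57 and 2.28 FPKM in the controls and at 2.15, 1.76 and 1.32 FPKM in the mutants (log2 fold change -0.51, SE 0.24), without overlap but with the highest mutant close to 2 of the controls. *Itga7* was the other tested gene of the list with every mutant below every control, an order that 3.00% of all genes tested had. It was at 1.173, 1.805 and 1.167 FPKM in the controls and at 1.036, 1.163 and 1.061 FPKM in the mutants. The highest mutant was thus close to 2 of the controls here too. With the replicate block 9 of the 14 were lower at an unadjusted p under 0.05 and 0 were higher, again with no adjusted p under 0.05. In that fit 3.96% of all genes tested were lower at that unadjusted p.

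Genes of the contractile apparatus varied widely within each group. Of 16, 14 were tested and all 14 were lower in estimate, with a median log2 fold change of -0.50, but 0 had an unadjusted p under 0.05 in limma. Of all genes tested, 49.3% were lower in estimate and 1.26% were lower at that p. The summed FPKM of the 16 contractile genes was 220.8, 704 and 412.4 in the control samples and 211.5, 381.1 and 292.3 in the mutants. The first replicates of both groups were thus low and alike, and control replicate 2 was far above the rest. *Myl1*, a fast myosin light chain, was at 15.2, 58.1 and 37.5 FPKM in the controls and at 13.8, 27.1 and 25.4 FPKM in the mutants (log2 fold change -0.58, SE 0.47). *Actc1*, the actin of embryonic muscle and heart, was at 65.1, 157 and 98.2 FPKM and at 63.4, 92.8 and 69.6 FPKM (-0.43, SE 0.31). *Mylpf* had a log2 fold change of -0.45 (SE 0.46), *Myh8* one of -0.69 (SE 0.43) and *Tnnt2* one of -0.54 (SE 0.49). With the replicate block 11 of the 14 were lower at an unadjusted p under 0.05, with no adjusted p under 0.05. In that fit 3.96% of all genes tested were lower at that unadjusted p. Without control replicate 2 the list's median was -0.095 and 10 of the 14 were lower, and without control replicate 1 it was -0.94. The median of the receptor and fusion genes was -0.21 and -0.55 in these fits, and in the pair of first replicates the medians of the receptor and fusion genes and of the contractile genes were -0.095 and -0.10.

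**Figure D5:**
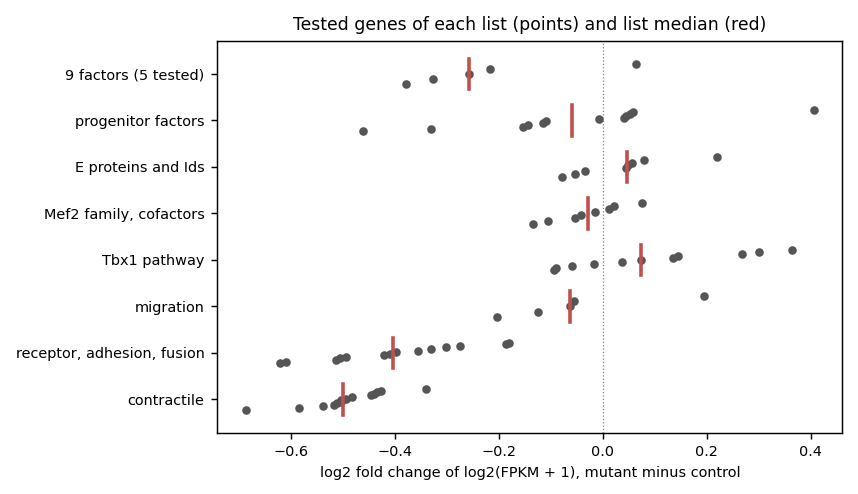
Log2 fold change, mutant minus control on the log2(FPKM + 1) scale (x axis), of each tested gene (grey points, spread vertically for legibility) in the 9 factors and 7 lists of their pathway (y axis), with the list median in red. All tested receptor, adhesion and fusion genes and contractile genes lie below 0, while the other lists lie on both sides of it, and no point passed the adjusted test.

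Markers of other cells in the dissected tissue were counted in the same way. Over all genes tested, 49.3% were lower by log2 fold change. At an unadjusted p under 0.05 in limma, 1.26% were lower and 0.824% higher, or 3.96% and 2.19% with the replicate block. Facial mesenchyme, with *Prrx1* and *Twist1* as its most abundant markers, was present in all samples at summed levels of 449.6 to 520.9 FPKM in the controls and 419.7 to 499.4 FPKM in the mutants (10 markers tested, 8 lower, median -0.047). The heart markers summed to no more than 1.01 FPKM in any sample and 0 of 5 passed the filter, none of them listed at 0 in all samples, so that *Actc1* and *Tnnt2* were measured in tissue nearly without heart markers. Of 8 neuronal markers, 7 were higher, with a median of 0.19 and summed levels of 660 to 711.4 FPKM in the controls and 775 to 851.7 FPKM in the mutants, and 3 had an unadjusted p under 0.05 in limma, 6 with the replicate block, all of them higher. Of 7 epithelial markers 7 were lower (median -0.19, sums of 122.7 to 225.5 FPKM and 122.7 to 175.8 FPKM), and like the contractile genes they were highest in control replicate 2. At an unadjusted p under 0.05, 0 of the epithelial markers were lower without the block and 2, *Krt5* and *Krt14*, with it. The 7 endothelial markers had a median of 0.0064 (sums of 105 to 124.9 FPKM over all samples) and the 6 forebrain progenitor markers one of 0.087 (sums of 245.2 to 448.1 FPKM). The 6 erythroid markers found were all higher in estimate (median 0.39), 0 of them at an unadjusted p under 0.05 without the block and 2 with it. Of 4 otic markers 1, *Oc90*, passed the filter, and it had the largest difference of all markers tested. *Oc90*, a protein of the inner ear, was at 0.0828, 5.04 and 0.0631 FPKM in the controls and at 25.4, 10.2 and 8.38 FPKM in the mutants, every mutant above every control (log2 fold change 2.88, SE 0.72, limma adjusted p = 1). Of all genes tested, 2.79% had every mutant above every control. The 4 otic markers summed to 0.109 to 5.24 FPKM in the controls and 8.53 to 26.4 FPKM in the mutants. *Tbx1* was highest in mutant replicate 1, as *Oc90* was, and second in control replicate 1, where *Oc90* was nearly absent. The part of these cells in the values of the 9 factors was not tested.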

How the data were processed

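RNA-Seq was performed by the authors on craniofacial tissue dissected at E12.5 from 3 controls and 3 *Rbfox2* mutants, assigned to groups by the genotype in their labels. The authors made stranded poly(A)+ libraries and sequenced paired ends. The submitters' processing notes name FastQC 0.11.4, STAR and Cuffdiff and the build GRCm38, and the annotation release and the step that made the gene table are not given in the sources used here. The values that the authors deposited are FPKM of whole genes in each sample, normalized by gene length and mapped fragments. The tables of single samples and of all samples held the same 231318 values (0 differed). Of the gene identifiers 95% were in GENCODE M21, which gave the coordinates. FPKM keeps no counts, so no interval for counting error could be given and no count test was run. Among genes under an FPKM of 0.05 in both samples of a pair, between 27.9% and 32.0% stood at 1 ratio in pairs among replicates 2 and 3 and no more than 1.89% where a first replicate was set against these, so whole reads were not recovered.

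From the deposited FPKM, log2(FPKM + 1), with a pseudocount of 1, was compared between groups by limma (version 3.58.1, R 4.3.3), with its variance trend on intensity and without covariates, over genes with a mean FPKM above 1 over the 6 samples, and p-values of all 13715 were adjusted together (Benjamini-Hochberg). This scale understates the fold change of low genes. The script was tested on simulated data. Single factors, ratios and the order of levels were compared by exact permutation tests. The factors and 16 gene lists (144 genes) were chosen with earlier results of these data known, so the lists were counted and not tested, with names given to the 2 most abundant and the 3 most different genes of each pathway list and to the 3 genes most like each tested factor. The 7 pathway lists were progenitor factors, E proteins and Id proteins, Mef2 family and cofactors, *Tbx1* pathway, migration, receptor, adhesion and fusion, and contractile genes. The 9 others marked cell types, and 1 of these is not reported here. Motifs were searched in RefSeq promoters with Python 3.11.15.

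Groups share replicate numbers. Across genes, the correlation of deviations from group means was 0.548, 0.271 and 0.363 for the samples numbered 1, 2 and 3 and -0.515 to 0.298 for samples of different numbers. The pairing comes from these values, since neither the labels nor the methods tie litters to numbers. Control replicate 3 with mutant replicate 2 had the 0.298, above the 0.271 of the samples numbered 2. The pairing therefore rests mainly on the first replicates of both groups, and the block was chosen from the data it was used on. The 13 alternatives were a pseudocount of 0.1, the filter of the study (an FPKM over 5 in all samples of 1 group), no filter, median-ratio scaling, the replicate block, a covariate for the Y-linked level (the mean of *Uty*, *Kdm5d*, *Eif2s3y* and *Ddx3y*), replicates 2 and 3 only, and each of the 6 samples left out. The study stated its filter for transcripts, whereas here it was set on whole genes. Counts of downstream genes that were lower under each alternative were added after the data were seen. So was the share without overlap among genes just under the main filter, a mean FPKM of 1.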

Additional observations from a re-analysis of the deposited data

How the results depend on the processing

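The values rest on 3 samples a group, and the first replicates and control replicate 2 decided much of the spread. The paper gives read depth as a range over the samples, and the fragments behind each value are not known. In limma the number of genes with an adjusted p under 0.05, 0 in the fit described, was 4 with the Y-linked covariate and between 0 and 6 with 1 sample left out (2 without control replicate 1 and 6 without mutant replicate 3). The count past an unadjusted p of 0.05, 286 in that fit, was 167 with the filter of the study, 663 with no filter, 844 with the replicate block, 1386 with replicates 2 and 3 only, and between 143 (without control replicate 2) and 985 (without control replicate 1) with 1 sample left out. It was 551 without mutant replicate 1. None of the 5 tested factors had an adjusted p under 0.05 in any alternative. The replicate block changed no adjusted call of the genes described. The unadjusted calls that it added among the factors and lists stand beside them in the report. *Myod1* (-0.53 to -0.19), *Myog* (-0.59 to -0.14), *Mef2c* (-0.43 to -0.095) and *Msc* (-0.60 to -0.029) were lower in all alternatives run, with adjusted p-values in limma from 0.473 to 1. For *Myod1*, *Mef2c* and *Msc* the lowest of these log2 fold changes came from the Y-linked covariate. Y-linked genes were high only in mutant replicates 1 and 2. The group term of that fit therefore rested in effect on mutant replicate 3 against the controls, and it cannot separate genotype from that sample. *Tbx1* changed sign, with -0.26 with the Y-linked covariate, -0.025 with replicates 2 and 3 only and -0.15 to 0.22 with 1 sample left out (-0.072 without control replicate 3), and the cause was not tested. The filter of the study gave no value for *Tbx1*, *Msc* or the counts over lists. Differences of *Myf5* and *Myf6* were -0.64 and -0.35 with a pseudocount of 0.1, in place of -0.31 and -0.085. With 1 sample left out, *Myf5* ran from -0.45 (without mutant replicate 1) to -0.17 (without mutant replicate 3), *Myf6* from -0.15 (without control replicate 1) to -0.0071 (without control replicate 2), *Tcf21* from -0.18 (without mutant replicate 1) to -0.0075 (without mutant replicate 3) and *Lbx1* from -0.39 (without mutant replicate 1) to 0.50 (without mutant replicate 2). The log2 ratio of *Myf5* to *Myod1* differed by -0.78 to -0.096 with 1 sample left out, that of *Myog* to *Myod1* by -0.18 to 0.092, that of *Tcf21* to *Msc* by -0.11 to 0.19, and that of *Myod1* to the contractile sum by -0.18 to 0.48, the last 3 with values of both signs (0.068, 0.030 and 0.092, -0.11 and -0.057, and -0.14 and -0.18 were the changes of sign). Of the 5 tested factors, 4 or 5 were lower in each alternative that gave all 5. All 14 tested receptor and fusion genes were lower in each alternative that gave them, as were the 14 contractile genes except without control replicate 2, where 10 were.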

Other observations

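Of the receptor, adhesion and fusion genes, 5 were under the filter and received no test, and the following were picked out after their values were seen. *Chrnd*, the delta subunit of the acetylcholine receptor, was at 0.473, 1.02 and 0.628 FPKM in the controls and at 0.252, 0.429 and 0.429 FPKM in the mutants. *Musk*, the kinase that gathers these receptors at the synapse, was at 0.508, 0.956 and 0.576 FPKM and at 0.387, 0.421 and 0.355 FPKM. *Ryr1*, the calcium release channel of skeletal muscle, was at 0.609, 1.57 and 0.803 FPKM and at 0.554, 0.548 and 0.589 FPKM. In these 3 genes every mutant was below every control, while *Cav3* and *Cacng1*, the other genes under the filter, overlapped between the groups. All 5 averaged above 0.5 FPKM, a band in which 5.54% of genes had every mutant below every control. Of the contractile genes under the filter, *Ttn* was at 0.117 to 0.744 FPKM in the controls and 0.155 to 0.242 FPKM in the mutants, and *Ckm*, a late muscle enzyme, was at no more than 0.242 FPKM in any sample.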
